A study of Eurytemora affinis with 15 samples.

Results

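Adult males of the calanoid copepod Eurytemora affinis that spent 72 h in elutriate of Fatouville sediment at 350 mg/L were compared with males that spent the same time in water only. Each group held 3 pools of 30 whole males, and each pool gave 1 library. Genes were kept when their normalised read count, the number of reads of a gene divided by 1 size factor per library, was at least 10 in at least 3 of these 6 libraries. This kept 17843 of the 23728 genes in the table, and 2034 genes had no read in any of the 6 libraries. At the threshold, the third highest of the 6 values was 10.3 in LOC111695851, just inside, and 9.98 in LOC111714892, just outside. The animals of both groups were caught in the Seine estuary, brought to 15 psu and 15 °C and fed the alga Rhodomonas salina. They were wild-caught adults whose genotype the labels do not give, and a pool averages over its animals. The other 9 libraries of the series came from Fatouville elutriate at 2500 mg/L and Tancarville elutriate at 350 and 2500 mg/L, with 3 pools each.

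Copepods of this kind feed on suspended particles and live in the turbid zone of estuaries, where sediment is stirred up by tides and dredging. An elutriate is usually the water phase left after sediment has been shaken with water, and it carries the contaminants that pass from particles into water. In crustaceans such contaminants are handled by oxidising enzymes, conjugating enzymes and export pumps, and exposure is commonly followed through stress proteins, moulting and energy metabolism. None of these functions could be assigned here, because the table names genes only by LOC identifiers (23697 genes) and tRNA identifiers (31 genes), and no source used here pairs LOC identifiers with gene products. The genes below are therefore described by their identifiers and values, and no marker of a tissue or of sex could be looked up. The 31 tRNA genes, which do carry a name, gave 2 reads over the exposed pools and 2 over the control pools, none of them was kept, and 28 had no read in the 6 libraries.

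The exposed libraries held 15.9, 15.2 and 16.3 M reads in genes (pools 1, 2 and 3), against 17.1, 16.5 and 15.9 M in the controls, and the median over kept genes was 210.0 reads in a library. The kept genes took 99.6% to 99.9% of the reads of the exposed pools and 98.9% to 99.9% of those of the control pools. Exposed pool 2 and control pool 3 stood apart. The distance between 2 libraries, taken over the log2(value + 1) of all kept genes, was 84.0 between exposed pools 1 and 2, 87.7 between pools 2 and 3, and 61.7 between pools 1 and 3. In the control group it was 69.8 and 72.3 from pool 3 to pools 1 and 2, and 53.1 between pools 1 and 2. The profile, the spread within groups, the calls and the 2-fold counts are given below with and without them.

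At the level of the whole profile the exposed pools did not lie closer to each other than to the controls. The closest of the 15 pairs was exposed pool 1 with control pool 2 (51.8), followed by exposed pool 3 with control pool 1 (52.0), so both lay nearer to a control pool than to each other. The 9 distances between the groups ranged from 51.8 to 92.8 and averaged 70.1, against 77.8 within the exposed group and 65.1 within the control group. The split into exposed and control pools explained 19.0% of the total variance (exact permutation test, 2-sided p = 0.6, where 3 against 3 libraries cannot give less than 0.1). The share was 29.4% without exposed pool 2 and control pool 3 (exact permutation p = 0.667, in a design of 2 against 2 that cannot reach 0.05). Any split of fewer libraries takes a larger share on average, so the 2 shares are not comparable. Pools of the exposed group were the more variable: the median SD of a gene's log2 value was 0.21 among exposed pools and 0.18 among control pools, and 57.9% of kept genes had the larger SD in the exposed group. Without exposed pool 2 and control pool 3 the median SDs were 0.13 among the 2 exposed and 0.12 among the 2 control pools, and the share was 52.7%.

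Gene by gene, the differences at the lower Fatouville concentration were small relative to the spread between pools. Limma, fitted on log2(value + 1) over all 15 libraries, called 0 of the 17843 kept genes at a Benjamini-Hochberg adjusted p below 0.05 (background 0% of the 18921 genes tested over the series), and edgeR called 0. DESeq2 called 6, of which 1 was higher and 5 lower after exposure (background 0.0424%, 8 of 18876 genes with an adjusted p). The unadjusted p was under 0.05 in 828 kept genes by limma, 895 by edgeR and 926 by DESeq2, where 892 would be met among independent unchanged genes. Of the 828, 362 were higher (background 2.01%) and 466 lower (background 2.56%). Their log2 fold changes had a median of 0.51 among the higher and -0.42 among the lower. The balance of directions was not stable: edgeR gave 478 higher and 417 lower, and limma without exposed pool 2 gave 428 higher and 345 lower. In whole animals, fewer cells of a type and less RNA per cell cannot be told apart.

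The design was nonetheless precise for most genes. The 95% interval of the log2 fold change had a median half-width of 0.38, which corresponds to a 1.30-fold difference, and in 14604 kept genes (81.8%) the whole interval lay within 2-fold in either direction. From the 25th to the 75th percentile the log2 fold changes ran only from -0.14 to 0.14. Precision followed the level: the median half-width was 0.80 in the 3781 genes with a mean normalised count under 50 and 0.25 in the 2182 genes from 1000 to 5000. The share of genes with an unadjusted p under 0.05 was similar at all levels, between 4.12% and 4.94% in 5 classes. Of the 481 genes with a mean of at least 5000, 162 were higher and 319 lower on average after exposure, with a median log2 fold change of -0.06 and 0 past 2-fold. Without exposed pool 2 the counts were 213 higher and 268 lower.

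The plot of fold change by level shows these sizes together with the 4 genes described next. These were the pair with the smallest p in each direction.

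**Figure D1:**
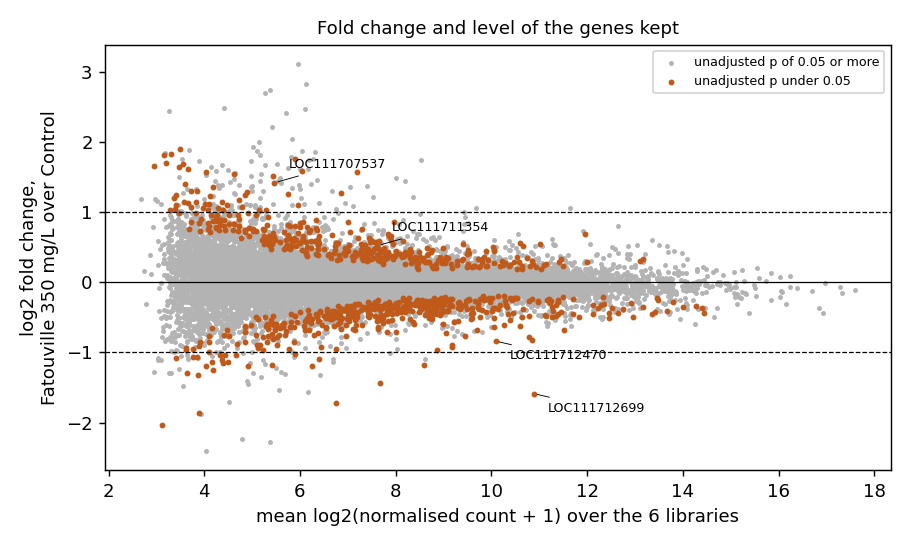
Log2 fold change (Fatouville 350 mg/L over Control, on the log2(value + 1) scale) against the mean log2(normalised count + 1) of the 6 libraries, with 1 point for each of the 17843 kept genes. Orange points are the 828 genes with an unadjusted limma p under 0.05, dashed lines mark 2-fold, and LOC111712699 lies well below the other genes of its level.

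The smallest p belonged to LOC111712470. It had 689, 892 and 878 normalised counts in exposed pools 1, 2 and 3, against 1336, 1489 and 1549 in control pools 1, 2 and 3. Every exposed pool was below every control pool, and the gap between the groups was wider than the spread within either. The mean was 819.5 ± 113 in exposed pools and 1458 ± 109.5 in controls (SD, n = 3 each), so exposed males held 56.2% of the control level. The log2 fold change was -0.84 (SE 0.14, 95% interval -1.13 to -0.54, limma adjusted p = 0.38).

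LOC111712699 showed the larger difference. It stood at 759, 1240.1 and 1371 normalised counts in the exposed pools, against 3348, 3434 and 3044 in the control pools. The groups were far apart, and exposed pool 1 was the lowest of the 6. The exposed mean was 34.3% of the control mean, with 1123 ± 322 in exposed pools and 3275 ± 205 in controls (SD, n = 3 each). The log2 fold change was -1.59 (SE 0.27, 95% interval -2.168 to -1.005, limma adjusted p = 0.405).

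Among genes with higher values LOC111707537 had the smallest p. It was at 92.8, 96.0 and 40.5 normalised counts in the exposed pools, against 28.2, 22.0 and 28.4 in the control pools. Exposed pools 1 and 2 stood together at more than 3 times the controls, whereas pool 3 lay only a little above them. The mean was 76.4 ± 31.2 in exposed pools and 26.2 ± 3.63 in controls (SD, n = 3 each), a 2.92-fold difference of means. The log2 fold change was 1.42 (SE 0.29, 95% interval 0.80 to 2.05, limma adjusted p = 0.928).

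LOC111711354 was less changed but more even across pools. It had 233, 256 and 216 normalised counts in the exposed pools, against 166, 168 and 154 in the control pools, with no overlap. The mean was 235 ± 20.0 in exposed pools and 163 ± 7.56 in controls (SD, n = 3 each), and the log2 fold change was 0.52 (SE 0.12, 95% interval 0.26 to 0.78, limma adjusted p = 0.928).

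**Figure D2:**
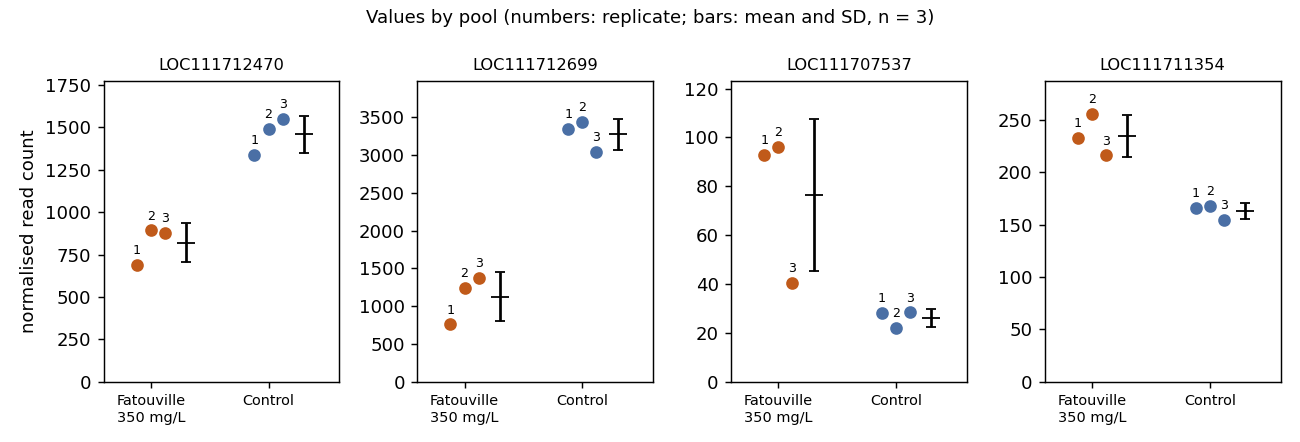
Normalised read counts of LOC111712470, LOC111712699, LOC111707537 and LOC111711354 in the 3 pools of Fatouville 350 mg/L (left, orange) and of Control (right, blue), on axes that start at 0, with the replicate number at each point and bars for mean and SD. The exposed pools lie below the controls in the first pair and above them in the second, with pool 3 of LOC111707537 (40.5) closest to its controls.

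The DESeq2 calls among the kept genes included 3 of these 4: LOC111712470, LOC111712699 and LOC111707537, with DESeq2 adjusted p of 0.000106, 8.4e-06 and 0.017. Without exposed pool 2 and control pool 3 DESeq2 called 4 kept genes, all lower, among them LOC111712470 (DESeq2 adjusted p = 0.0219) and LOC111717869 (DESeq2 adjusted p = 0.00622) but no other of the 6, while limma and edgeR called 0. The other 3, all lower after exposure, are named after their values were seen. LOC111712343 had 345, 449.7 and 493 normalised counts in the exposed pools, against 684, 771 and 923.5 in the control pools (DESeq2 adjusted p = 0.00231, limma adjusted p = 0.405). Its groups did not overlap, and the exposed mean was 54.2% of the control mean. LOC111717050 was the most even, at 636, 644.5 and 665 in the exposed pools, against 928, 820.3 and 1026 in the control pools (DESeq2 adjusted p = 0.0456, limma adjusted p = 0.928).

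LOC111717869 had 58.9, 69.6 and 48.2 normalised counts in the exposed pools, against 491, 114 and 132 in the control pools (DESeq2 adjusted p = 0.00716, limma adjusted p = 0.928). The control mean was carried by pool 1, for which the authors' deposited table gives a Cook's distance of 2.75, a score of how far a library moves the fit of a gene. The remaining 2 genes that DESeq2 called were not among the kept genes, and each rested on 1 library. LOC111704795 had 559 normalised counts in exposed pool 2, 0.998 and 0 in exposed pools 1 and 3, and 0 in the controls. LOC111706649 was at 0 in every exposed pool and at 89.9 in control pool 3, with 0 in control pools 1 and 2.

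Beyond the tests, the values of the groups could be set against each other directly. All 3 exposed values lay above all 3 control values in 888 kept genes (background 5.01%) and below them in 1026 (background 5.6%), while 15929 kept genes overlapped. In 164 kept genes the mean log2 value was at least 1 higher after exposure, a 2-fold difference (background 1.67%), and in 63 at least 1 lower (background 1%). Most of these were genes of low level: the median mean normalised count was 39.8 among the 164 and 40.6 among the 63, against 201 over all kept genes. The groups did not overlap in 61 of the 164 and 26 of the 63, larger shares than the backgrounds of 5.01% and 5.6%. Choosing genes by a 2-fold difference itself favours groups that do not overlap, so these shares are no separate result. The rule itself admitted 21 genes only through the exposed group, with at least 10 in every exposed pool and less in every control pool, and 14 only through the control group. These had to differ, and they are not read as a result. They were not removed from the counts above, and lie among the 888 and the 1026 genes.

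The 2-fold higher values were largely those of exposed pool 2. This pool was the highest of the 6 libraries in 132 of the 164 higher genes, and in 4374 of all 17843 kept genes. Choosing genes by a high exposed mean itself favours an exposed pool with outlying values. Without it 128 of the 164 were no longer 2-fold higher and 12 had a mean below Control, and 55 kept genes in all were 2-fold higher and 102 lower. Without both exposed pool 2 and control pool 3 the counts were 68 higher and 89 lower. Of the 63 lower genes, 29 were still 2-fold lower without control pool 3, and 43 to 57 without any 1 of the other 5 pools. A gene at the extreme of the higher ones shows the pattern: LOC111699089, named after its values were seen, had 15.0, 11734 and 31.8 normalised counts in the exposed pools, against 20.6, 29.6 and 13.2 in the control pools. Its log2 fold change of 3.12, the highest of the kept genes, had an SE of 2.81 (limma adjusted p = 0.931), and without exposed pool 2 it was 0.12.

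Counted over all kept genes, exposed pool 2 was at least 2-fold above the next highest library in 299 genes and at least 2-fold below the next lowest in 114. For exposed pool 1 the counts were 31 above and 22 below, and for exposed pool 3 they were 3 above and 52 below. Control pool 3 had 135 genes above and 51 below, control pool 1 had 7 above and 31 below, and control pool 2 had 3 above and 23 below. Control pool 3 thus stood out in the genes above, whereas in the genes below it was close to exposed pool 3. Among the genes left out by the rule, 751 reached 10 in a single library. Of these, 364 did so in exposed pool 2 and 131 in control pool 3, with 45 to 79 in each of the other 4. The highest left-out gene reached 2080.3 normalised counts in exposed pool 2, and 32081 in control pool 3.

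**Figure D3:**
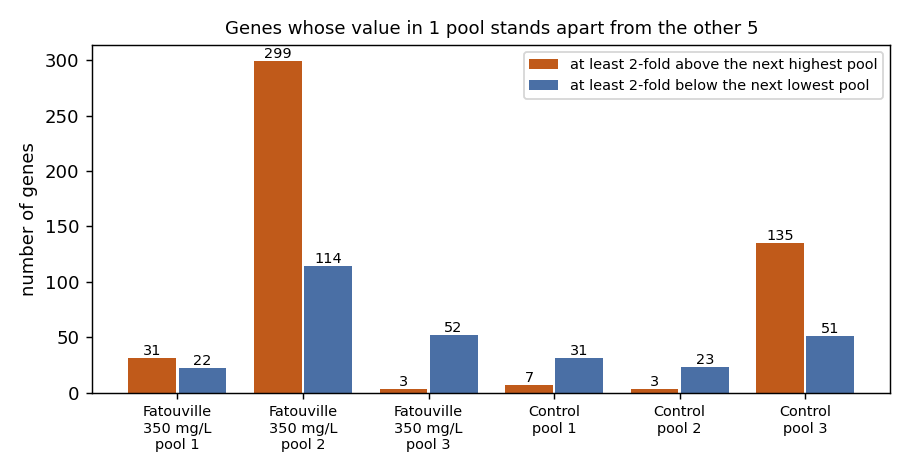
Number of kept genes (of 17843) whose value in 1 pool was at least 2-fold above the highest (orange) or below the lowest (blue) of the other 5 pools, for the pools of Fatouville 350 mg/L (left) and of Control (right). Exposed pool 2 has the most genes in both directions (299 above, 114 below), and control pool 3 comes second for genes above (135) but not for genes below (51, against 52 in exposed pool 3).

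Counted over all 23728 genes of the table, few were read in every pool of 1 group and in no pool of the other. Of 2342 genes with 0 reads in every control pool, 21 had at least 1 read in every exposed pool. The most read of them had 21 reads over the exposed group. Of 2318 genes with 0 reads in every exposed pool, 11 had at least 1 read in every control pool, with at most 34 reads over the control group. At the other end of the range, the 100 genes with the highest normalised counts, which are not corrected for transcript length, had log2 fold changes between -0.59 and 0.51. Of these 28 were higher and 72 lower, against 51 higher and 49 lower without exposed pool 2. The groups did not overlap in 5 of the 100, all lower after exposure, a share near the background of 5.6%. In LOC111702192, the one of the 5 with the smallest p, named after its values were seen, exposed pool 2 was the lowest, with 22075, 13591 and 23543 normalised counts in the exposed pools against 27227, 25092 and 25690 in the control pools (limma adjusted p = 0.928).

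The 2 concentrations of Fatouville elutriate were then compared directly, a difference of means that takes no value from the control libraries. The spread behind its SE, p values and calls was estimated over all 15 libraries, the controls included. Limma called 1 gene of 18921 (background 0.00529%), lower at 350 mg/L, and edgeR called 0. DESeq2 called 1064 (background 5.75%), 220.0 higher and 844 lower at 350 mg/L. By limma the unadjusted p was under 0.05 in 3755 genes, 1466 higher and 2289 lower at 350 mg/L. After quantile normalisation, which moved the median log2 fold change of all genes to 0.10, the split was 2916 higher and 1470.0 lower. The count of genes that limma called at an adjusted p below 0.05, 1 with all libraries, depended on the libraries. It was 1103 without pool 1 of the 2500 mg/L group. It was 0 without any 1 pool of the 350 mg/L group or without pool 3 of the 2500 mg/L group. The called gene, LOC111710162, had 1024, 900.4 and 971 normalised counts at 350 mg/L, against 1875, 2388 and 2469 at 2500 mg/L. Its log2 fold change was -1.21 (SE 0.17, limma adjusted p = 0.0441, edgeR adjusted p = 0.0563). In the water controls it stood at 960.1, 1058 and 1495, a range that takes in the 2 higher pools at 350 mg/L and lies below all pools at 2500 mg/L.

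The genes that had the smallest p against Control took different positions along the series of Fatouville concentrations. LOC111712470 averaged 1458 in Control, 819.5 at 350 mg/L and 555 at 2500 mg/L, and no 2 of these groups overlapped. The log2 fold change of 350 over 2500 mg/L was 0.56 (SE 0.14, 95% interval 0.26 to 0.85, limma adjusted p = 0.0648). LOC111712699 had the same order without overlap, at 3275, 1123 and 564, with a log2 fold change of 350 over 2500 mg/L of 0.97 (SE 0.27, 95% interval 0.39 to 1.55, limma adjusted p = 0.0907). For LOC111712343 the 2 concentrations overlapped. In each of these genes the Tancarville pools also lay below all control pools, which every exposure shares. Against these controls limma called LOC111712470 with Fatouville 2500, Tancarville 350 and Tancarville 2500 mg/L (limma adjusted p = 0.000632, 0.00765 and 0.00857). LOC111712699 was called in the same 3 comparisons (limma adjusted p = 0.00442, 0.00765 and 0.0289). For LOC111712343 the limma adjusted p values were 0.00875, 0.0703 and 0.0207 in that order. With Tancarville elutriate at 350 and 2500 mg/L LOC111712470 averaged 683 and 663, and LOC111712343 averaged 395 and 347. LOC111712699 averaged 574 and 848, so its step down with concentration was not seen there.

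The genes with higher values did not show the ordered change of LOC111712470 and LOC111712699 along the Fatouville series. LOC111711354 averaged 163 in Control, 235 at 350 mg/L and 226 at 2500 mg/L, and the 95% interval of the log2 difference between the concentrations ran from -0.20 to 0.31. LOC111707537 averaged 26.2, 76.4 and 54.4 along the same series, with an interval of -0.22 to 1.03. With Tancarville elutriate at 350 and 2500 mg/L LOC111711354 averaged 200 and 209, and LOC111707537 averaged 53.4 and 88.6. In both genes every Tancarville pool lay above all control pools. LOC111717050, a gene with lower values, was near 1 level at both concentrations, 648 at 350 mg/L and 672 at 2500 mg/L, against 925 in Control. Its log2 difference between the concentrations was -0.05 (95% interval -0.29 to 0.19). With Tancarville elutriate it averaged 871 at 350 mg/L, where its pools overlapped the controls, and 686 at 2500 mg/L, where they lay below them.

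The other genes named for the contrast between concentrations were chosen like the 4 above, by the smallest p in each direction. DESeq2 called each of them, and limma and edgeR did not (limma adjusted p = 0.0543 and edgeR adjusted p = 0.0563 for each). LOC111697904 had 7.99, 10.3 and 3.86 normalised counts at 350 mg/L, against 43.7, 91.1 and 79.6 at 2500 mg/L, and 14.1, 9.56 and 26.5 in Control (DESeq2 adjusted p = 1.57e-05 between the concentrations). LOC111696256 was at 121, 134 and 129 at 350 mg/L, against 72.2, 59.4 and 53.1 at 2500 mg/L (DESeq2 adjusted p = 0.000713). LOC111714820 was at 45.9, 59.3 and 54.0 at 350 mg/L, against 27.6, 19.1 and 24.4 at 2500 mg/L (DESeq2 adjusted p = 0.00628). In Control LOC111696256 averaged 104 and LOC111714820 averaged 33.8, in both cases between the averages at 2500 and 350 mg/L.

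**Figure D4:**
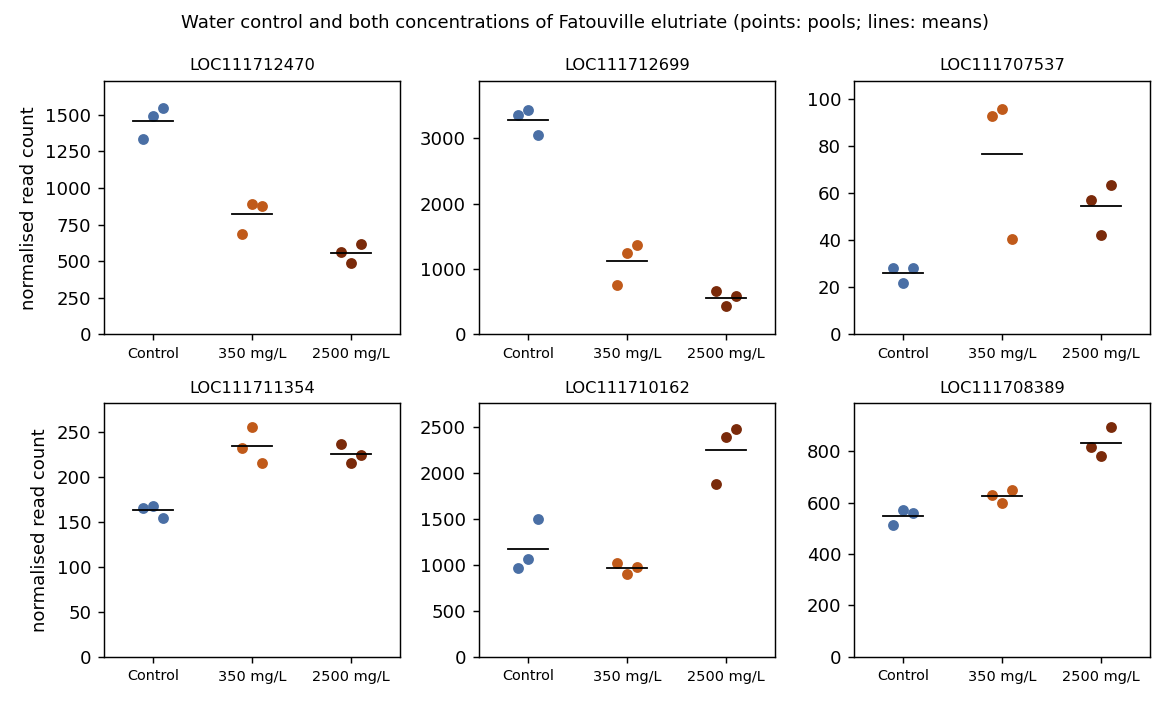
Normalised read counts in Control, Fatouville 350 mg/L and Fatouville 2500 mg/L (points are pools, lines are means, axes start at 0). The genes are the 4 named against Control for the smallest p in each direction, LOC111710162 and LOC111708389. LOC111712470 and LOC111712699 step down along the series, LOC111710162 is highest at 2500 mg/L (1875 to 2469), and LOC111708389 at 350 mg/L (600.3 to 651) lies between the other groups.

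At the same concentration few genes were called between the elutriates of the 2 sites. Between Fatouville 350 mg/L and Tancarville 350 mg/L limma called 0 of 18921 genes (background 0%), edgeR called 0 and DESeq2 called 5 (background 0.0265%). The unadjusted limma p was below 0.05 for 880 genes, where independent unchanged genes would give a share of 0.05 of the 18921. The median half-width of the 95% interval was 0.40 on the log2 scale. The genes with the smallest p values in each direction had modest differences. LOC111697329 had 374, 346 and 549.9 normalised counts with Fatouville elutriate, against 788, 732 and 773 with Tancarville elutriate, a difference of -0.88 on the log2 scale (SE 0.16, limma adjusted p = 0.826, DESeq2 adjusted p = 0.00793). Its control pools stood at 658, 605 and 615. LOC111707088 was very even at 585, 565.5 and 573 with Fatouville elutriate, against 385.5, 439 and 426 with Tancarville elutriate (log2 fold change 0.46, SE 0.09, limma adjusted p = 0.826, DESeq2 adjusted p = 0.00944).

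LOC111708389 had 631, 600.3 and 651 normalised counts in the Fatouville pools, against 977, 838 and 851 in the Tancarville pools at 350 mg/L (log2 fold change -0.50, SE 0.10, limma adjusted p = 0.862, DESeq2 adjusted p = 0.0132). In Control it stood at 515, 574 and 559. The Fatouville pools lay just above the controls, with a log2 fold change of 0.19 (95% interval -0.02 to 0.40), and below the Tancarville pools. LOC111708490 was at 245, 221 and 247 in the Fatouville pools, against 153, 176 and 182 in the Tancarville pools (limma adjusted p = 0.982). LOC111712699, the gene with the lowest share of its control level among the 4, was higher with Fatouville than with Tancarville elutriate at 350 mg/L in every pool, 1123 ± 322 against 574 ± 17.9 (SD, n = 3 each, log2 fold change 0.92, 95% interval 0.340 to 1.503, limma adjusted p = 0.982).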

How the data were processed

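The deposited table holds a signal, the normalised counts, in which the authors divided the reads of each gene by 1 size factor per library. It was checked that all values (100%, tolerance 1e-06) are whole multiples of the value of 1 read. It also holds Cook's distance, a score that the authors deposited per gene and library. The tools listed in the submitters' processing notes are HTSeq 0.11.2, STAR, Salmon and DESeq2, with no step assigned to any. Sources used here give no build, annotation or strand setting, so near-identical or overlapping genes could share reads.

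The main test was limma 3.58.1 in R 4.3.3 (intensity trend, robust) on log2(value + 1), with 1 term per group over all 15 libraries and genes at 10 or more in at least 3 libraries (18921 genes), 2-sided, Benjamini-Hochberg adjusted over all of them. Fold changes on this scale understate changes of low genes. edgeR 4.0.16 (quasi-likelihood, TMM) and DESeq2 1.42.0 were run on the recovered whole reads, and an adjusted p that DESeq2 left out stayed missing. The fits were tested on simulated data. Other alternatives were pseudocounts, filters, quantile normalisation, a replicate block and left-out libraries.

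The text names, per comparison, the 2 genes with the smallest p in each direction; others are marked. The members, lists and tests were chosen with earlier results of these data known. None of 31 product-name lists matched an identifier (0 matches), so no gene groups are described. As a check for a library deposited under 2 labels, counts were compared between pools of the exposed and of the control group, and no pair agreed within sampling noise (lowest chi-square per degree of freedom 12.5). The labels call them biological replicates, and p-values measure the spread between them. Depth was 13.6 to 17.2 M reads per library. Same-numbered pools of the 2 groups at 350 mg/L deviated together (correlations 0.103, 0.316 and 0.359), a pairing taken from these data; with the replicate block limma called 0 genes between them.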

Additional observations from a re-analysis of the deposited data

Results flagged for a closer look

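The effects of the 2 Fatouville concentrations against the shared controls differed by a test of the difference itself in LOC111710162, with a log2 fold change of 350 over 2500 mg/L of -1.21 (SE 0.17, limma adjusted p = 0.0441). The call was lost in 6 of 18 alternatives, with adjusted p between 1.27e-07 and 0.196. Control pool 3 (1495) stood above the other controls (960.1 and 1058) in this gene. No test for a single outlying sample was run on a gene, since each group held 3 pools.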

How the results depend on the processing

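For Fatouville 350 mg/L against Control, limma called 0 kept genes in every alternative run with it, 6 were called by DESeq2 and 0 by edgeR; without exposed pool 2 and control pool 3, an alternative chosen after the data were seen, DESeq2 called 4 and edgeR 0. The replicate block also gave 0, over 15 libraries or over these 6 alone. By label, same-numbered pools of these groups share only a number. Their deviations had correlations of mixed sign (0.129, -0.161 and -0.158), as had those of the 2 Fatouville groups (-0.123, -0.296 and 0.168). Against Tancarville 350 mg/L, DESeq2 called 5 genes, and leaving out 1 pool gave 0 to 1 (the 1 without pool 3 of Fatouville). Against Fatouville 2500 mg/L the count of 1 became 116 with a pseudocount of 5, 2 without a filter on low values, 202 with these 6 libraries alone, 189 with the replicate block and 278 with the block in the 6 alone. It became 683 without exposed pool 2, control pool 3 and pool 3 of Tancarville 2500 mg/L, 1064 by DESeq2 and 0 by edgeR. It ranged from 0 to 1103 with 1 pool left out. The cause was not tested. 

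The 164 genes 2-fold higher became 261 by edgeR, 259 by DESeq2 and 68 without exposed pool 2 and control pool 3, and 55 to 372 with 1 pool left out. The 63 lower became 37 with a pseudocount of 5, 110.0 by edgeR and 113 by DESeq2, and 63 to 131 with 1 pool left out. These counts and their alternatives were chosen after the data were seen. The variance share was between 14.8% and 29.4%, with exact permutation p from 0.2 to 0.8. These alternatives differ in the number of libraries split, which itself moves the share. The 12 genes named for the smallest p, 4 per comparison, kept their direction in that comparison in each of the 17 or 18 alternatives run. They were picked for that p from the same values that the alternatives refit, so the kept direction is no independent support. Intervals were wider in genes with a mean under 50; how much of this is depth was not tested.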
